A study of Mus musculus with 6 samples.

Results

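The 10 genes described here make, desaturate and lengthen fatty acids. They were chosen by symbol, with earlier results of these data known, and each was found once among the 27179 genes of the table. Fasn and Acaca build saturated fatty acids, Scd1, Scd2, Fads1, Fads2 and Fads3 introduce double bonds, and Elovl1, Elovl5 and Elovl6 lengthen the chain.

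Transcripts were measured by RNA-seq in B16F10, an established mouse melanoma line labelled wild type and as skin. The cells were cultured in medium with serum and treated for 6 h with 0.01% ozonated olive oil (OZO, 3 libraries) or with 0.01% olive oil (OLO, 3 libraries), the oil before exposure to ozone. Every library thus came from cells that had received an oil. The libraries are numbered within each treatment, and the study describes them as independent experiments. The values used here are the mean log2 CPM of each gene over all 6 libraries, where CPM is the read count scaled to a common library size. A mean over both treatments carries no spread, so no value below has an SD, and no difference between OZO and OLO is given. Depth was 19.6 reads per CPM in the geometric mean of the libraries, and the total of each library is unknown.

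New fatty acids are built in the cytosol from acetyl-CoA. Acetyl-CoA carboxylase, encoded by Acaca, turns it into malonyl-CoA, and fatty acid synthase, encoded by Fasn, extends malonyl-CoA into palmitate. Stearoyl-CoA desaturases then convert saturated into monounsaturated fatty acids such as oleate, the main fatty acid of olive oil. Fads1, Fads2 and Elovl5 encode enzymes that act on dietary polyunsaturated fatty acids, whose double bonds are sites of lipid peroxidation. Many of these genes are known targets of SREBP transcription factors.

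Upstream sequences are shown for Fasn, which codes for the central enzyme, for Elovl5, among the highest of the 10 genes per length, and for Fads3, the lowest. Each run holds the 250 bases before a RefSeq start site on GRCm38.p6, 5′ to 3′ along the gene, with CCAAT and its reverse complement ATTGG in capitals. Fasn is at chr11:120824548-120824797 on the minus strand, Elovl5 at chr9:77917115-77917364 on the plus strand and Fads3 at chr19:10041298-10041547 on the plus strand.
Fasn: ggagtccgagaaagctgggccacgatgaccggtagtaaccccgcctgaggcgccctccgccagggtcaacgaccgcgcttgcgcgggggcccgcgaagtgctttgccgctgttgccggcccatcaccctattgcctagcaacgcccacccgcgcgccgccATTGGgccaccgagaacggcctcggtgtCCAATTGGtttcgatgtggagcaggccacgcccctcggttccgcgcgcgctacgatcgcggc
Elovl5: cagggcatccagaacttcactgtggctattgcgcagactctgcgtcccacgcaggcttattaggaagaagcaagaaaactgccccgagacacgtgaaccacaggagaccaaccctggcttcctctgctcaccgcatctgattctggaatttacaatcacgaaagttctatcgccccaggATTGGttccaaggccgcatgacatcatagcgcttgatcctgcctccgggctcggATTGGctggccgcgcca
Fads3: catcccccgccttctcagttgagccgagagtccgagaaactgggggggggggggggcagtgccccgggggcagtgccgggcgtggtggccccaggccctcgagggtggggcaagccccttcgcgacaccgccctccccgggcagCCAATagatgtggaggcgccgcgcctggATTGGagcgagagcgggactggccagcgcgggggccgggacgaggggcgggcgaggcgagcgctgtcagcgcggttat

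The CCAAT box, known as a binding motif of NF-Y, occurred 3 times in the Fasn window, where a pair of matches overlapped as CCAATTGG. It occurred 2 times in the Elovl5 window and 2 times in the Fads3 window. Any link of the motif to level was not tested. RefSeq windows were found for 7 of the 10 genes, 8 windows in all because Elovl1 has a pair of start sites. Scd1, Scd2 and Fads1 have none here, so no motif count below covers them. The Acaca window and 1 of the Elovl1 windows lie wholly inside the annotated gene, as do 243 of the 250 bases of the Fads2 window and 31 of the Elovl6 window. A CCAAT box on either strand was in 4 of these 8 windows, beside 33.8% of 32851 windows of all genes. The Acaca, Fads2 and Elovl6 windows held none. The sterol element pattern TCACNCCAC, searched on both strands, was in 0 of the 8 windows and in 1.05% of all windows. An E-box of the sequence CACGTG, which is its own reverse complement, was in the Elovl5 window only, among the 8, and in 6.02% of all windows. The GC box GGGCGG, searched on both strands, was in 4 of the 8 windows, those of Elovl1, Fads2 and Fads3, and in 32.7% of all windows. GC content ranged from 39.2% for Acaca to 74.4% for Fads3, against a median of 52.4% over all windows.

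Per length of longest transcript, the desaturases of saturated fatty acids held the highest levels of the 10 genes, although Scd1 lay only 1.10-fold above Elovl5. Scd2 had a mean log2 CPM of 10.73, equal to 1694 CPM. Divided by its longest annotated transcript of 5455 bases, this was 8.28 on the scale of log2 CPM per kilobase, the scale on which levels of different genes are set side by side below. It stood at percentile 99.5 of the 23882 genes with a known length. Scd1, which encodes the isoform best known from liver and fat, had a mean log2 CPM of 7.83 and 5.55 per kilobase, at percentile 94.4. Scd2 was thus 6.61-fold above Scd1 per kilobase of longest transcript, 3.86-fold per kilobase of mean transcript length and 7.40-fold per kilobase of coding sequence. Of the summed CPM per kilobase of longest transcript of all 10 genes, Scd2 made up 60.6%. The share on the other lengths was not computed.

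The Scd genes are neighbours. All 4 mouse members, Scd1 to Scd4, lie within 205 kb of chromosome 19 (GRCm38, 44203269 to 44407879), Scd1 (44394455 to 44407879) on the minus strand and the others, Scd2 (44293674 to 44306864) among them, on the plus strand. Scd3 and Scd4 were low, with mean log2 CPM of -0.87 and -3.11, or 0.547 and 0.116 CPM. For Scd4 this is below the 0.153 CPM that 3 reads per library give, a limit that leaves out the 0.5 reads added to each count. It corresponds to a geometric mean of 2.27 for reads plus 0.5 per library. Scd1 was 300-fold above Scd3 per kilobase of longest transcript, 436-fold per kilobase of mean transcript length and 420-fold per kilobase of coding sequence. Scd3 rested on a geometric mean of 10.7 for reads plus 0.5 per library. Stretches of 50 bases that occur in a transcript of another gene covered 9.06% of the bases of the longest Scd1 transcript and 9.57% of that of Scd2, led in both by other Scd genes. How reads on such stretches were assigned is not given in the sources used here, so the low values of Scd3 and Scd4 are uncertain. The exons of Scd2 also contain the 61 bases of Mir5114, which had no read in any library.

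Among the FADS genes, those of polyunsaturated fatty acid synthesis exceeded 1 CPM and Fads3 did not. Fads1, which encodes the delta-5 desaturase of the last step to arachidonic acid, had a mean log2 CPM of 6.65 and 4.86 per kilobase (percentile 90.1). Fads2, which encodes the desaturase of the initial step, had a mean log2 CPM of 5.41 and 3.76 per kilobase (percentile 80.1). Fads1 was 2.15-fold above Fads2 per kilobase. Fads3, which is known to act on sphingoid bases, had a mean log2 CPM of -0.68, or 0.625 CPM, and rested on a geometric mean of 12.3 for reads plus 0.5 per library. At -2.56 per kilobase it stood at percentile 43.6 of all genes, a rank set partly by the added 0.5 reads, since 526 of the 4655 genes without reads, divided by their lengths, lay above it. Among genes with reads it stood at percentile 32.7, and Fads2 was 79.8-fold above it. The 3 genes share 155 kb of chromosome 19 (GRCm38, 10041569 to 10196877), where Fads1 starts at 10182888 on the plus strand. Fads3, whose longest transcript has 12 exons, runs from 10041569 to 10060110 on the plus strand and ends next to Fads2, which runs from 10062765 to 10101746 on the minus strand. These adjacent genes therefore stood far apart in level, and of their longest transcripts 54 bases, 1.71% of Fads2 and 1.46% of Fads3, lay in stretches of at least 50 bases found in the other.

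Elovl5, which lengthens polyunsaturated fatty acids, was the highest of the 3 elongase genes, with a mean log2 CPM of 6.89 and 5.41 per kilobase (percentile 93.7). Elovl1, which makes saturated and monounsaturated very long chains, had a mean log2 CPM of 5.33 and 4.47 per kilobase (percentile 86.9). Elovl6, which turns palmitate into stearate and so supplies the Scd enzymes, had a mean log2 CPM of 4.96 and 2.39 per kilobase (percentile 68.2). On GRCm38, Elovl5 lies on chromosome 9 (77917364 to 77984519), Elovl1 on chromosome 4 (118428093 to 118432953) and Elovl6 on chromosome 3 (129532355 to 129638495), each on the plus strand. The place of Elovl6 depended on the length used. Its longest transcript has 5951 bases and its coding sequence only 801. Elovl1 was 4.22-fold above Elovl6 per kilobase of longest transcript, but 1.23-fold above it per kilobase of coding sequence. Repeated sequence bears on it too, since 9.49% of the bases of the longest Elovl6 transcript lie in 50-base stretches that occur in transcripts of 191 other genes, and 34 exonic bases overlap the antisense gene Gm35986. The 3′ end of Elovl1 overlaps Cdc20 on the opposite strand over 53 of 2726 exonic bases. Cdc20, a mitotic gene, had a mean log2 CPM of 6.19, and the strand setting of the counting is not given in the sources used here.

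The genes of synthesis took places 5 and 7 among the 10 per kilobase of longest transcript and places 7 and 9 per kilobase of coding sequence, but places 4 and 6 per kilobase of mean transcript length. Fasn, on chromosome 11 (GRCm38, 120805846 to 120824547, minus strand, 43 exons), had a mean log2 CPM of 8.14, the next highest after Scd2 before length was taken into account. Its longest transcript has 10050 bases, and per kilobase its level was 4.81 (percentile 89.7). Acaca, on chromosome 11 (84129672 to 84401651, plus strand, 56 exons), had a mean log2 CPM of 7.07 and 3.82 per kilobase (percentile 80.8). Fasn was 1.99-fold above Acaca per kilobase of longest transcript and 1.97-fold per kilobase of coding sequence. Much of the Acaca sequence has a copy elsewhere. Of its longest transcript, 63.1% of the bases lie in 50-base stretches that also occur in Gm5182, a processed pseudogene on chromosome 12, so its level is uncertain to the extent that reads were lost to or shared with that copy. Gm5182 was not found by symbol or Ensembl identifier among the 27179 genes, so no level of it can be given.

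**Figure D1:**
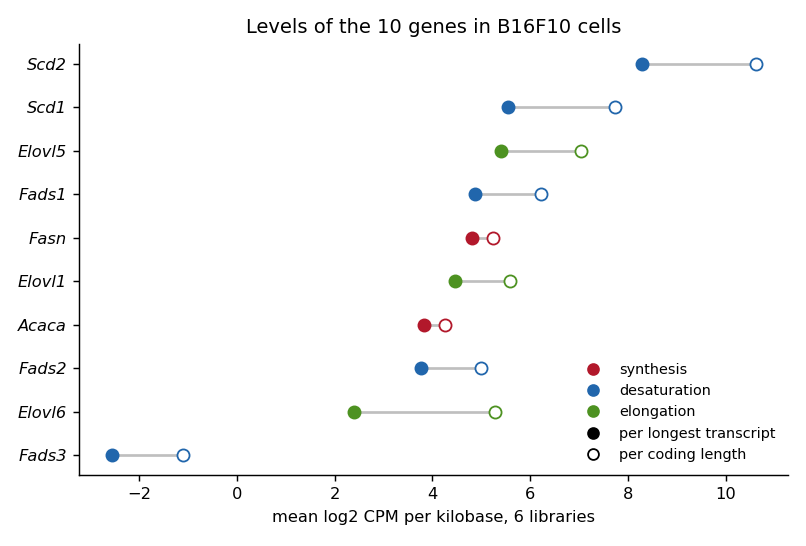
Mean log2 CPM per kilobase of the 10 genes over all 6 libraries (x axis), per longest transcript (filled) and per coding length (open), coloured by role; no error is shown because the mean carries none. Scd2 stands highest and Fads3 lowest on both lengths, at 8.28 and -2.56 per longest transcript and at 10.62 and -1.11 per coding length, while Elovl6 moves most between them.

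From highest to lowest per kilobase of longest transcript, the order was Scd2, Scd1, Elovl5, Fads1, Fasn, Elovl1, Acaca, Fads2, Elovl6 and Fads3. Several neighbours in this order lay close together. Scd1 was 1.10-fold above Elovl5, Fads1 was 1.04-fold above Fasn, and Acaca was 1.04-fold above Fads2. Whether such small steps exceed the spread between libraries could not be tested. The steps from Scd2 to Scd1, of 6.61-fold, and from Elovl6 to Fads3, of 30.9-fold, were the widest. Of the 10 genes, 9 had at least 1 CPM, as did 48.1% of all genes with a length and 59.7% of those with a read. The median of all 10 was 4.64 per kilobase. Over all 23882 genes with a length the median was -1.47, and over the 19227 of these with a read in some library it was 0.90.

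A further 7 genes are close relatives of the 10, and their median was -2.59 per kilobase. Acacb, the acetyl-CoA carboxylase of mitochondria, had 0.66 on the scale of log2 CPM per kilobase, and Acaca was 8.90-fold above it per kilobase of longest transcript, 10.1-fold per kilobase of coding sequence and 14.2-fold per kilobase of mean transcript length. Elovl7 had a mean log2 CPM of 5.12, beside 4.96 for Elovl6, and 3.11 per kilobase of longest transcript. The ratio of Elovl6 to Elovl7 was 0.606 on that length, 0.946 per kilobase of coding sequence and 1.19 per kilobase of mean transcript length, so their order depended on the length. Elovl4, the elongase of ultra-long chains, had 0.62 per kilobase. Elovl2 and Elovl3 had -2.76 and -2.59 per kilobase and mean log2 CPM of -0.82 and -1.67. Of the 7 relatives, 3 had at least 1 CPM, namely Acacb, Elovl4 and Elovl7.

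Another 28 genes were listed as partners of these enzymes, for supply, help, electron transfer, other steps of elongation or control. At least 1 CPM was found for 24 of them, and their median was 4.38 per kilobase, beside 4.64 for the 10 genes. The 3 highest per kilobase of longest transcript were from the list of electron donors of desaturases. Whether each of the 4 genes on this list serves the desaturases was not tested. Cyb5a and Cyb5b, which encode forms of cytochrome b5, had 128 and 114 CPM per kilobase, and Cyb5r3, which encodes a reductase of cytochrome b5, had 103 CPM per kilobase. The other gene of this list, Cyb5r1, had 22.9 CPM per kilobase. Acly, which encodes the ATP citrate lyase that supplies acetyl-CoA, also had 103 CPM per kilobase. Per kilobase of mean transcript length Acly stood above all 4 genes of the donor list, at 7.58 on the log2 scale beside 7.48 for Cyb5a. The 5 genes that supply acetyl-CoA and NADPH ranged from 2.07 to 6.69 per kilobase, and the 6 other genes of the elongation cycle from -1.22 to 6.58. Of the 8 regulators of transcription, 6 had at least 1 CPM, and the median of the 8 was 3.78 per kilobase. Srebf1 and Srebf2, which encode the SREBP factors, had 33.5 and 144 CPM, and Insig1, whose product holds SREBP back in the endoplasmic reticulum, had 165 CPM. Nr1h3, which encodes the oxysterol receptor LXR alpha, had 0.912 CPM. Mlxipl, which encodes the carbohydrate-responsive factor ChREBP, had 0.0510 CPM. Olah, a thioesterase known from mammary gland, had 0.0333 CPM. Both lie below the 0.153 CPM that 3 reads per library give, so no level per kilobase is given for them in the text. Thrsp, a lipogenic protein of liver and fat, had 7.46 for reads plus 0.5 and -1.88 per kilobase.

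**Figure D2:**
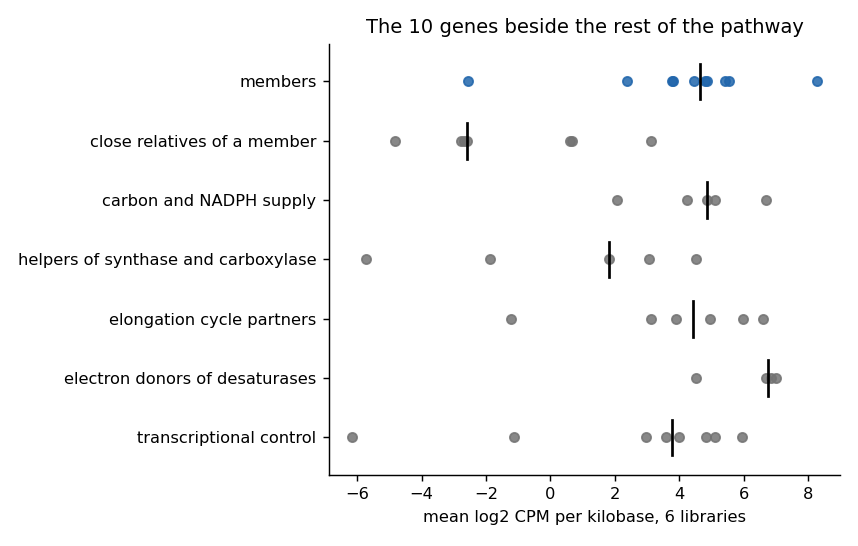
Mean log2 CPM per kilobase of longest transcript over all 6 libraries (x axis) for the 10 genes (blue) and for 6 lists of related genes (grey), 1 point a gene, with the median of each list as a black line. The 10 genes have a median of 4.64, the close relatives a median of -2.59 and the list of electron donors a median of 6.76.

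The label of a melanoma line was checked against marker genes. All 7 melanocyte markers had at least 1 CPM, from 5.29 per kilobase for Sox10 to 11.07 for Tyrp1. Of 14 markers of keratinocytes, fibroblasts, adipocytes, macrophages and endothelium, 5 had at least 1 CPM and the other 9 had at most 0.101 CPM, below the 0.153 CPM that 3 reads per library give. Values that low depend strongly on the 0.5 reads added to each count, so no level per kilobase is given for these 9 in the text. All 3 fibroblast markers were among the 5, with 1.70 CPM for Col1a1, 1.15 CPM for Col1a2 and 3.28 CPM for Pdgfra, and so was the endothelial marker Pecam1 with 1.21 CPM. The part of such cells in the levels of the 10 genes was not tested. The highest of the 14 per kilobase was the macrophage marker Cd68 with 5.47 CPM, a lysosomal protein that is not restricted to macrophages, at 2.15 on the log2 scale, whereas Ptprc and Adgre1 were among the 9. The adipocyte markers Adipoq, Plin1 and Fabp4, of a cell type known for high levels of Scd1 and Fasn, were among the 9 too, with a geometric mean of 1.98, 1.04 and 0.600 for reads plus 0.5 per library. Krt5 had no read in any library. For each library taken alone, this allows up to 0.153 CPM with 3 reads as the limit, counting error alone considered. The lower limit set by all libraries together was not computed.

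**Figure D3:**
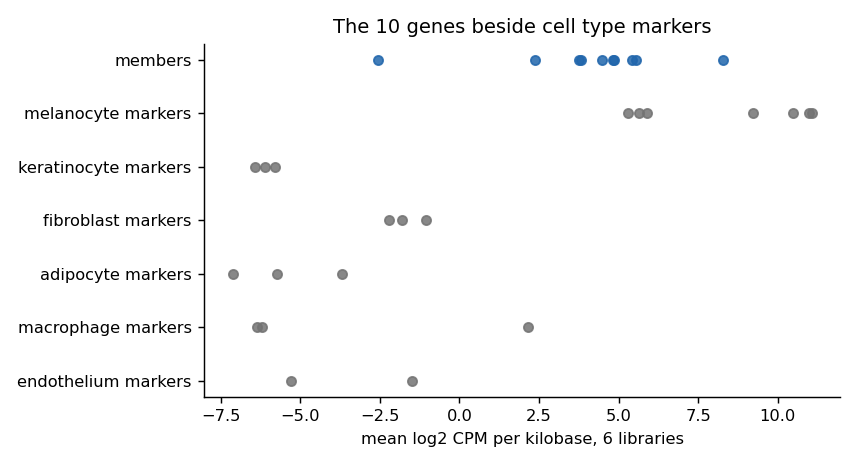
Mean log2 CPM per kilobase of longest transcript over all 6 libraries (x axis) for the 10 genes (blue) and for the markers of 6 cell types (grey), 1 point a gene. Melanocyte markers lie from 5.29 to 11.07, and markers of other cell types reach at most 2.15; the 9 lowest of these depend strongly on the 0.5 reads added to each count and on transcript length.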

How the data were processed

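RNA of B16F10 cells was sequenced in 6 libraries, 3 per treatment. According to the methods and the submitters' processing notes, reads were aligned to mm10 with HISAT2 2.1.0, counted with featureCounts 2.1.1 and compared with limma-voom 3.58.1. Libraries were made with a directional kit, and a UCSC mm10 annotation is named for StringTie. The annotation and strand setting of the counting are not given in the sources used here. The authors deposited 1 table of 27179 genes with a mean log2 CPM per gene over all libraries, to which voom adds 0.5 reads. Its other columns hold the authors' comparison of OZO with OLO (fold changes, statistics and p-values) and were not used, so the test planned for values of single libraries was not run.

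The value shared by the 6025 genes without reads gave the average depth of a library on a geometric scale, 19641945 reads after scaling. Levels were divided by the longest transcript in GENCODE M21 (GRCm38), found for 23882 of 24126 Ensembl identifiers. Genes named were the 10 members, 7 relatives and the 3 highest and 3 lowest of 28 partners. Cell type markers came from fixed lists. Genes that share sequence with a member, and listed partners named for other reasons, were chosen after their values were seen. The members and lists were chosen with earlier results of these data known. Recovery of library size and of genes without reads was tested on simulated counts. Alternatives were the genes ranked against and the transcript length. Upstream windows are from RefSeq on GRCm38.p6. Python 3.11.15, numpy 2.4.6, pandas 2.3.3 and matplotlib 3.10.9 were used.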

Additional observations from a re-analysis of the deposited data

How the results depend on the processing

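No paired analysis was possible because each value is a mean over all 6 libraries. For the same reason another normalization, another filter or pseudocount, and leaving out each culture were not run. The median percentile of the 10 genes per kilobase was 88.3 among all genes with a length. Among genes with at least 1 read it was 85.4, since genes without reads lay below 9 of the 10 genes, and Fads3 moved from 43.6 to 32.7. Ranking among genes with a symbol gave the same 88.3 but tested nothing, since all 23882 genes with a length have a symbol. With coding length, 6 of the 10 genes were at the same place in the order of levels, and with mean length over transcripts also 6. Scd2, Scd1 and Elovl5 led and Fads3 was last on all 3 lengths, whereas Elovl6 rose from the ninth to the sixth place with coding length, Fasn fell from the fifth to the seventh and Acaca from the seventh to the ninth. With mean length both instead rose by 1 place, to the fourth and the sixth. With no spread between libraries, a percentile was taken as moved when it changed by 1 or more. Depth limits Fads3, Scd3, Scd4, Elovl2, Elovl3, Nr1h3, Thrsp, Mlxipl, Olah and 9 markers of other cell types, all under 1 CPM.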
